A study of Arabidopsis thaliana with 12 samples.

Results

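The comparison set a lower axillary bud of the Arabidopsis thaliana rosette, bud n-2, against the bud of the uppermost rosette leaf, bud n, on plants kept in simulated shade. The labels do not define the numbering, which is read here as usual in work on these buds, counting down from the uppermost leaf n. The comparison used the 3 arrays labelled as bud n-2 under light with little red relative to far-red (low R:FR) and the 3 labelled as bud n under low R:FR, 6 of the 12 arrays of the series. The other 6 arrays hold the same buds under high R:FR and are used below to ask where the difference between the buds depends on light. All 4 groups were of the Col-8 accession in the Col-0 background, at a labelled stage that, on the growth scale usual for this species, is the opening of the first flower. All were grown singly in tubes with optimal water and fertilizer in a split chamber, with 18 h of fluorescent light a day at 185 µmol per square metre and second, 24 °C in the light and 18 °C in the dark, with 3 days in the cold. The sources used here do not give the ratios themselves, how long the treatment lasted or how many plants stand behind an array. Whether the replicates are separate sets of plants is not stated in the labels, and the p-values therefore reflect array-to-array spread, which may be technical.

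Axillary buds form where a leaf meets the stem and can stay arrested or grow into branches. After bolting, rosette buds of Arabidopsis usually grow out from the top of the rosette downwards, so the uppermost bud is the one nearest to outgrowth. A low R:FR, read by phytochromes, is the light signal of neighbouring plants and holds back branching. Growing buds are known for transcripts of cell division and of protein synthesis, and arrested buds for transcripts linked to abscisic acid, to low sugar supply and to drying or cold.

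Signal was read on Affymetrix ATH1 arrays, where a probe set is a group of short probes for a transcript and its value is an intensity on a linear scale. Array medians were 43.6 to 44.1 in bud n-2 and 37.8 to 38.8 in bud n, and correlations of log2 intensity were 0.979 to 0.987 within a bud and 0.884 to 0.899 between the buds. The actin control's ratio of 3-prime to 5-prime signal, a sign of RNA quality, was 4.03, 4.14 and 4.32 on the log2 scale in bud n-2 and 4.60, 4.79 and 4.50 in bud n. These values did not overlap (exact permutation test, two-sided, p = 0.1, the lowest possible with 3 arrays a side; adjusted over 3 controls, 0.3). The GAPDH and ubiquitin ratios overlapped (exact permutation p = 0.6 and 0.5). Their part in the differences below was not tested. Whole buds were measured, so fewer cells of a type and less RNA per cell cannot be told apart. The label could be checked against few markers: of 64 markers of leaf, meristem, flower, anther, pollen, vascular, trichome, root and seed cells, 5 had a named probe set and 2 could be tested, AMS and TRY. No meristem or leaf marker was among the tested ones, so the tissue itself was not checked by markers here.

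After a filter on dim probe sets, 14295 were tested. A difference was called at a Benjamini-Hochberg adjusted p under 0.05 in limma, fitted to all 12 arrays. In bud n-2, 4058 probe sets were higher (28.4% of those tested) and 3330 were lower (23.3%), and 6907 were not called. The arrays of the buds did not overlap for 8741 probe sets (61.1%), so a lack of overlap, where it is given below, is what most probe sets show. Genes chosen below as the highest or lowest were taken only from those without overlap, so for them it adds nothing. With calls this common, a list with about 28.4% of its members higher is no different from the array as a whole. Differences were mostly moderate, with a median log2 difference of 0.64 among the higher and -0.54 among the lower probe sets. By fitted fold, 1006 were higher and 427 lower at 2-fold or more, and 732 and 711 with median centring. At 4-fold or more 234 were higher and 58 lower. These fitted folds include dim groups, where they are not measured folds. Among the tested probe sets 439 passed the filter through 1 bud only, and 343 of these were called; such a probe set had to differ. For 335 of the higher probe sets the signal in bud n was dim, at or below the array's 40th percentile on each of its 3 arrays, and for 173 of the lower ones it was dim in bud n-2. Folds of such genes are given as lower bounds. Genes dim on only 1 or 2 of a bud's arrays are given without a bound, and their differences rest partly on dim values. Among them are SIS, AT4G17470, LTI30, LEA4-5, SWEET11, EXLA1 and HYH. Of the 95 probe sets called at 8-fold or more higher, 54 could be given a gene and 10 of these have a symbol rather than a locus code. Many well-known bud genes have no named probe set in the tables used here and were not analysed by name. The median of all tested probe sets was 0.05, and it moved to -0.04 with quantile normalization and to -0.15 with median centring, which turned the split of calls from 54.9% higher to 33.3% higher.

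**Figure D1:**
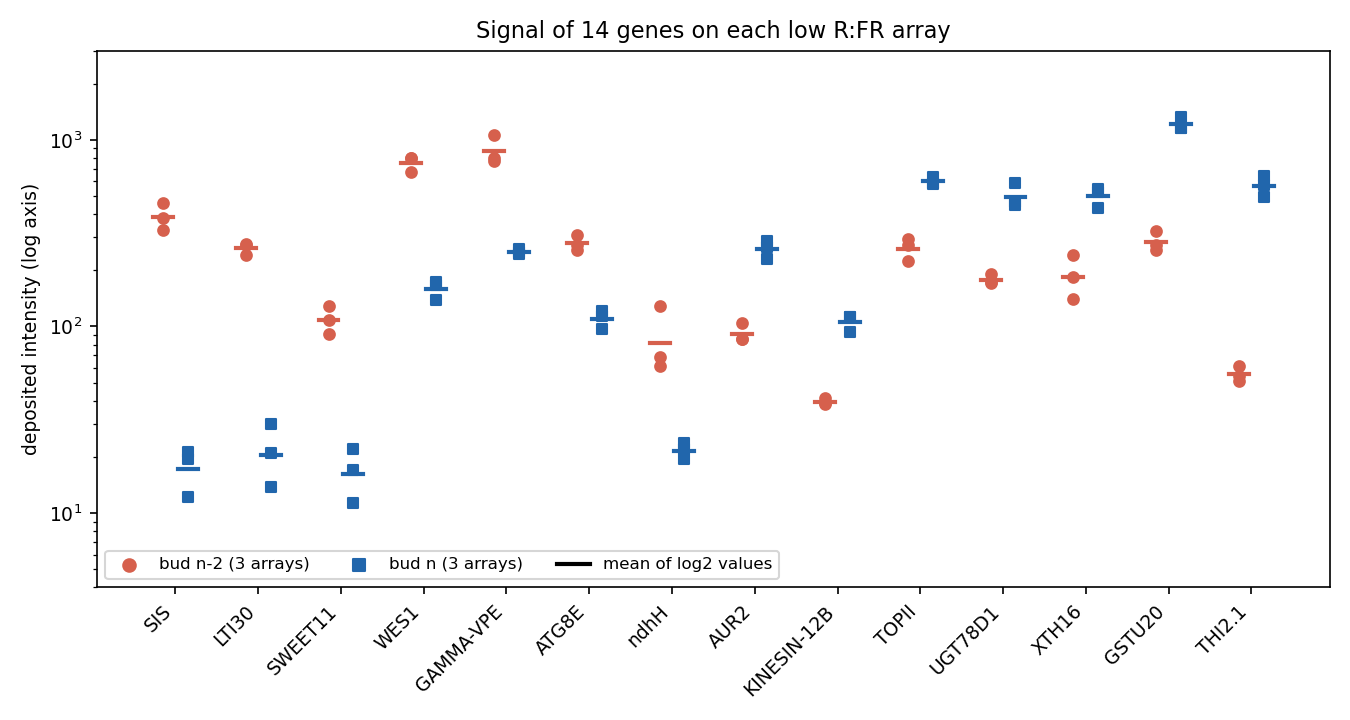
Deposited intensity (log axis) of 14 genes on each of the 6 low R:FR arrays. Circles are the 3 arrays of bud n-2, squares the 3 arrays of bud n, and bars the means of the log2 values. The arrays of the buds do not overlap for any gene shown, as for 61.1% of all tested probe sets. For some of the genes, taken as the highest or lowest, this was a condition of choice. The first 7 genes are higher in bud n-2 and the last 7 lower.

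The widest differences were of transcripts near the limit of detection in the upper bud. AT1G47980 read 842, 666 and 457 in bud n-2 and 5.36, 0.652 and 4.45 in bud n, and was at least 34.8-fold higher. HIS1-3, a drought-inducible linker histone, read 343, 404 and 488 against 2.75, 0.765 and 12.9, and was at least 22.3-fold higher. Both were bright on every array of the lower bud and dim on every array of the upper one, under high R:FR as well. They thus passed the filter through bud n-2 only and had to differ. So did AT1G02813, AT3G23770 and AT1G68875. AT1G02813 and AT3G23770 were at least 19-fold and 15.4-fold higher. AT1G68875 was at least 1.97-fold higher, since its signal in bud n-2 was itself low, at 16.7, 81.1 and 34.2. SIS, a serine-rich protein named for its induction by salt, could be measured in both buds, at 330, 458 and 381 against 19.5, 12.2 and 21.2. It was 22.5-fold higher in bud n-2 (log2 difference 4.49 ± 0.27 SE, adjusted p = 1.9e-09), with a wide gap between the groups. At the other end, AT4G11190 read 9.16, 15.8 and 6.88 in bud n-2 and 145, 196 and 159 in bud n, at least 7.33-fold lower. It passed the filter through bud n only. AT4G17470 read 13.2, 25.1 and 13.4 against 207, 468 and 339. Its fitted log2 difference was -4.29 ± 0.30 SE (adjusted p = 7.3e-09), with 2 arrays of bud n-2 dim. The files used here give these locus codes no name.

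Transcripts of mitosis were lower in the lower bud. Of 11 tested genes of mitosis and cytokinesis, 8 were lower, 1 was higher and 2 were not called, against 23.3% lower and 28.4% higher on the whole array, and their median log2 difference was -0.68. AUR2, an Aurora kinase that acts on dividing chromosomes and the new cell plate, read 86.1, 104 and 85.7 in bud n-2 and 267, 229 and 287 in bud n. The highest array of the lower bud thus stood well below the lowest of the upper bud (log2 difference -1.50 ± 0.11 SE, adjusted p = 9.9e-09). KINESIN-12B, a motor protein of the phragmoplast that builds the new wall, read 38.7, 38.6 and 41.6 against 93.5, 112 and 112. Its log2 difference was -1.41 ± 0.14 SE (adjusted p = 4.1e-07), with no overlap. BUB3.1, a protein of the checkpoint that holds chromosomes until they are attached, was lower with -0.81 ± 0.10 SE, at 215, 226 and 183 against 369, 372 and 346. The counts of 8 lower and 1 higher were the same in each alternative but a stricter filter, which left 9 of the genes, with 7 lower and 1 higher.

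The exception was KEU, which read 227, 207 and 269 in bud n-2 and 137, 157 and 158 in bud n and was higher with 0.63 ± 0.11 SE (adjusted p = 1.4e-04). KEU helps vesicles fuse at the cell plate and also belongs to a list of vesicle transport genes. On that list of 35 tested genes 10 were higher, near the whole array's 28.4%, and 5 lower, below its 23.3%. The split followed the scaling (6 higher and 12 lower with median centring). Only 2 were lower without replicate 1 or replicate 2 of bud n-2. Leaving out low R:FR replicate 2 of bud n, or its high R:FR replicate 2 or 3, gave 3 lower.

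Genes that copy and package DNA showed the same direction with smaller sizes. Of 5 tested replication genes 3 were lower and none was higher (median -0.49), against 23.3% lower and 28.4% higher on the whole array. PRL, the MCM7 subunit of the helicase that opens DNA, read 319, 316 and 270 against 402, 425 and 443 (-0.49 ± 0.10 SE, adjusted p = 8.3e-04). POLD3 and POLA3, subunits of DNA polymerases, were lower with -0.73 and -0.50. ICU2, the catalytic subunit of DNA polymerase alpha, had a difference of -0.40 ± 0.18 SE and was not called (adjusted p = 0.0652). All 4 tested histone H2B genes were lower, HTB4 at 1423, 1516 and 1189 against 2377, 1940 and 2001. HTB2 was the weakest at -0.38 and was not called without replicate 1 of bud n-2 (-0.30) or with quantile normalization (-0.19). TOPII, the topoisomerase that untangles replicated chromosomes, read 274, 293 and 223 against 634, 585 and 578. Its difference of -1.19 ± 0.11 SE (adjusted p = 2.3e-07) was the most negative on a list of 26 chromatin remodelling and DNA repair genes. On that list 6 were higher, 3 lower and 17 not called, both shares below those of the whole array (28.4% and 23.3%).

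**Figure D2:**
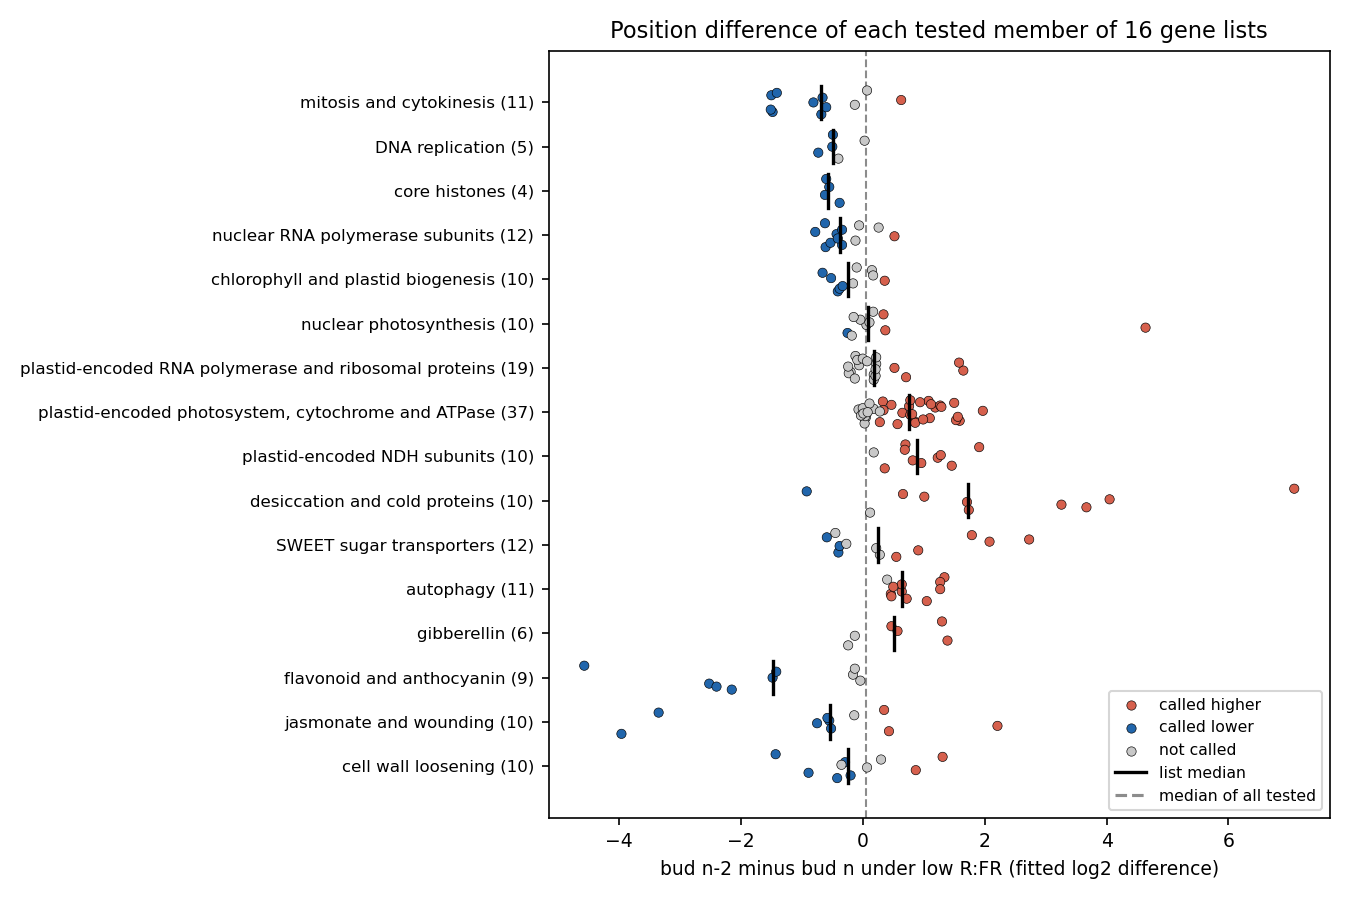
Fitted log2 difference, bud n-2 minus bud n under low R:FR, of each tested member of 16 gene lists (number of members in parentheses). Colours give the call at an adjusted p under 0.05, black bars the list medians and the dashed line the median of all tested probe sets, 0.05. Points beyond about 2 on either side include genes that are dim in a bud, whose fitted difference is not a measured fold.

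Enzymes that transcribe nuclear genes also stood lower. Of 12 tested subunits of the nuclear RNA polymerases 8 were lower and 1 was higher, with a median of -0.38. On the whole array 23.3% were lower and 28.4% higher. NRPB9B, a subunit of polymerase II, read 71.9, 68.6 and 72.4 against 127, 116 and 124 (-0.78 ± 0.09 SE, adjusted p = 2.5e-06), with no overlap. NRPB12 and NRPB7 were lower with -0.61 and -0.53, and NRPC1, the largest subunit of polymerase III, with -0.62. The 1 higher subunit, NRPD7 at 0.52, named after its value was seen, lost its call with both other scalings and without replicate 3 of bud n-2 or replicate 2 of bud n. The count of lower subunits was 5 without replicate 2 of bud n. Among ubiquitin and proteasome genes, 9 of 31 were higher and 8 lower, near the whole array's 28.4% and 23.3%. UBC20, which resembles the animal ubiquitin-conjugating enzymes that act with the anaphase-promoting complex, read 151, 150 and 152 in bud n-2 and 419, 382 and 440 in bud n (-1.45 ± 0.09 SE, adjusted p = 1.9e-09). SKP2A, an F-box protein that marks cell cycle factors for degradation, was instead higher, at 239, 264 and 307 against 120, 114 and 105 (1.25 ± 0.11 SE).

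Most tested genes for proteins that protect cells in dry or cold conditions were higher in the lower bud. Of 14 genes of desiccation and cold proteins 10 were tested, with 8 higher, 1 lower and 1 not called (median 1.73). On the whole array 28.4% were higher and 23.3% lower. Of the 10, 2 passed the filter through 1 bud only, and with a filter at the 60th percentile 6 of 8 were higher and 1 lower. LTI30, a dehydrin induced by cold and drought, read 241, 272 and 276 in bud n-2 and 21.1, 13.8 and 30.1 in bud n (3.67 ± 0.31 SE, adjusted p = 6.6e-08). LEA4-5, which belongs to the late embryogenesis abundant proteins, read 148, 155 and 119 against 11.7, 10.5 and 25.3. In bud n LTI30 was dim on 1 array and LEA4-5 on 2. LEA18 was at least 1.5-fold higher, at 24.2, 24.1 and 34.9, and was dim in bud n. COR15A, which shields chloroplast membranes in frost, was already bright in the upper bud, with 1114, 1237 and 1365 against 422, 290 and 438 (1.71 ± 0.17 SE, adjusted p = 2.7e-07). The protein class was not uniform. AT2G46140, annotated as LEA27 and named after its value was seen, was lower with -0.92 ± 0.11 SE, at 49.7, 46.2 and 45.5 against 88, 94 and 86.3. XERICO, a RING protein whose overexpression raises abscisic acid, read 665, 679 and 680 against 216, 217 and 282 (1.51 ± 0.13 SE, adjusted p = 9.1e-08). HVA22C, the only tested gene of the abscisic acid synthesis and signalling list, had a difference of 0.05 ± 0.14 SE and was not called.

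Handling and wounding can induce some of the same genes. Of the 3 tested genes on the touch, handling and heat list, STZ, a stress zinc-finger factor, was called higher with a bound of 1.11-fold. It passed the filter through bud n-2 only and had to differ. The 40th percentile itself averaged 22.6 in bud n-2 and 18.3 in bud n, a gap wider than that bound. CML42 read 22.9, 17 and 24.9 against 16.9, 22.2 and 21 and was not called. Hsp70-2, a cytosolic heat shock protein, was lower, at 98.2, 90.2 and 105 against 267, 258 and 235 (-1.38 ± 0.10 SE, adjusted p = 1.1e-08). The 3 genes thus gave no common direction, and their part in the desiccation result was not tested.

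Transcripts of sugar handling differed by gene. Of 12 tested SWEET genes, which encode sugar exporters, 5 were higher, 3 lower and 4 not called, so calls went both ways. The whole array had 28.4% higher and 23.3% lower. SWEET11, a sucrose exporter that loads the phloem, read 91.3, 108 and 129 in bud n-2 and 11.4, 22.2 and 17 in bud n (2.73 ± 0.21 SE, adjusted p = 1.9e-08). SWEET4 was at least 3.32-fold higher, since it was dim in bud n at 13.6, 14.3 and 15.2. SWEET3 and SWEET1 were higher with 1.79 ± 0.24 SE and 0.91 ± 0.11 SE. The lower ones were SWEET7, SWEET17 and SWEET10 with -0.59, -0.40 and -0.38, named after their values were seen, and none of the 3 was called without replicate 1 of either bud. Without replicate 3 of bud n-2 or replicate 2 of bud n, 1 SWEET gene was called lower. AKINBETA1, a regulatory subunit of the energy sensor SnRK1, read 383, 439 and 416 against 171, 160 and 185 (1.26 ± 0.09 SE, adjusted p = 1.3e-08). ATSPS4F, a sucrose phosphate synthase, and PPDK, which can return pyruvate to sugar synthesis, were at least 1.43-fold and 1.71-fold higher, both dim in bud n. Both passed the filter through bud n-2 only and had to differ.

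Autophagy, the delivery of cell contents to the vacuole, was the most uniform of the nuclear lists with 10 or more tested members. Of 11 tested genes 10 were higher and none lower (median 0.64), against 28.4% higher and 23.3% lower on the whole array. ATG8E, an ubiquitin-like protein that coats the autophagosome, read 308, 272 and 258 against 114, 96.9 and 121 (1.34 ± 0.15 SE, adjusted p = 1.8e-06). ATG8B read 237, 271 and 258 against 110, 96.7 and 111, and ATG8F, the brightest of the 3, 1017, 1072 and 1008 against 542, 473 and 486. AT5G66930, annotated as the kinase complex subunit ATG101, was higher with 1.27 ± 0.14 SE. The gene that was not called, ATG8H at 0.40 ± 0.22 SE (adjusted p = 0.151), was named after its value was seen. Over the alternatives that tested all 11, 9 to 11 were called higher and none lower. Both tested vacuolar processing enzymes, proteases that mature vacuolar proteins, were higher as well. GAMMA-VPE read 800, 773 and 1064 against 244, 251 and 260 (1.79 ± 0.12 SE, adjusted p = 4.2e-09), and BETA-VPE was higher with 1.23 ± 0.15 SE. The senescence list had 1 tested gene, SAG29, at -0.27 ± 0.22 SE and not called.

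Genes of the plastid genome were higher in the lower bud or not called. Of 66 tested plastid-encoded genes 38 were higher and none was lower (median 0.49), against 28.4% higher and 23.3% lower on the whole array. NDH, the complex of cyclic electron flow, had 9 of 10 genes higher (median 0.89), and the cytochrome b6f complex 5 of 6 (0.93). Photosystem I had 3 of 5 genes higher (0.65), photosystem II 10 of 15 (0.34) and the ATP synthase 3 of 6 (0.55). The plastid's own RNA polymerase had 1 of 4 genes higher and its ribosome 3 of 15. The difference between the complexes was not tested. The largest differences were those of ycf4, a photosystem I assembly factor, at 609, 389 and 617 against 108, 125 and 178 (1.97 ± 0.24 SE, adjusted p = 2.9e-06), and of ndhH, at 128, 68.5 and 61.7 against 22, 19.4 and 23.8 (1.91 ± 0.28 SE, adjusted p = 2.6e-05). Neither overlapped between the buds, although replicate 1 of bud n-2 stood above the others for ndhH. The rbcL gene of the Rubisco large subunit, named after its value was seen, read 248, 250 and 260 against 225, 233 and 261, with a difference of 0.08 ± 0.17 SE that was not called. With median centring the median of the RNA polymerase and ribosome genes changed sign, from 0.18 to -0.02, and 4 of the 19 were then called lower. Of the 19, 1 was called lower without replicate 1 or 2 of bud n-2 or replicate 2 of bud n.

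**Figure D3:**
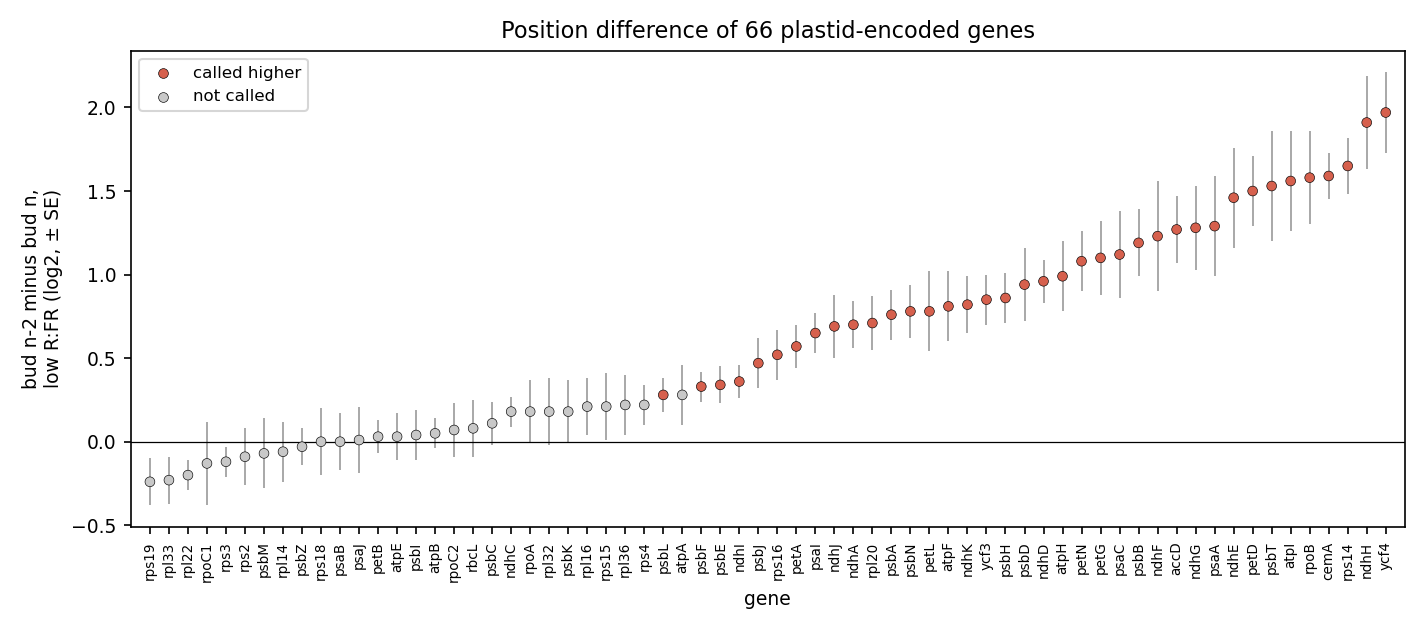
Log2 difference, bud n-2 minus bud n under low R:FR, with its SE, of the 66 tested plastid-encoded genes in order of size. The 38 filled red are called higher and the grey ones not called; none is called lower.

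Nuclear genes for plastids gave other counts. Of 10 tested nuclear photosynthesis genes 3 were higher, 1 lower and 6 not called (median 0.08), near the share of the whole array, and the split turned from 6 higher and 0 lower with quantile normalization to 1 higher and 4 lower with median centring. Of the 10, 1 passed the filter through 1 bud only. The lower gene was not called without replicate 3 of bud n-2 or replicate 1 or 3 of bud n. LHCB4.2, a minor antenna protein of photosystem II, read 1999, 1911 and 1980 against 1590, 1558 and 1511 (0.34 ± 0.09 SE), and was not called with median centring (0.14). Of 10 genes of chlorophyll synthesis and plastid division 5 were lower and 1 higher (median -0.25), the higher one not without replicate 3 of bud n-2 or replicate 1 of bud n. The whole array had 23.3% lower and 28.4% higher. HEMB1, an early enzyme of chlorophyll and heme synthesis, read 446, 437 and 431 against 672, 708 and 697 (-0.66 ± 0.07 SE, adjusted p = 1.4e-06), and HEME2 and HEME1, later in the same pathway, were lower with -0.52 and -0.41. The labelling kit starts from poly(A) tails, which plastid and mitochondrial transcripts largely lack, so their signal need not follow their level. The control for 25S ribosomal RNA, which also lacks a tail, read 2384, 2907 and 2258 in bud n-2 and 1713, 1460 and 1765 in bud n. It moved with the plastid genes and its part in their difference was not tested. Of 9 tested mitochondrial genes 4 were higher and 1 lower, and only 2 were higher with quantile normalization, with median centring or without any 1 of replicates 1 and 3 of bud n-2 or replicates 1 and 2 of bud n. For nad1, a subunit of respiratory complex I, the brightest of its probe sets read 67, 59.7 and 66 against 34.2, 30.5 and 39 (0.90 ± 0.15 SE, adjusted p = 1.2e-04), and 2 further tested probe sets were also higher, one with 1.25 and the other, dim in bud n, at least 2.01-fold. That last probe set passed the filter through bud n-2 only and had to differ.

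Hormone genes were measured in small numbers. Of 6 tested gibberellin genes 4 were higher and none lower, against 28.4% higher and 23.3% lower on the whole array. GID1C, 1 of the higher ones, passed the filter through bud n-2 only and had to differ. GID1B, a gibberellin receptor, read 84.1, 84 and 72.2 in bud n-2 and 29.8, 27.4 and 34.4 in bud n (1.39 ± 0.16 SE, adjusted p = 1.7e-06). Its paralogs GID1C, at least 2.09-fold, and GID1A, with 0.57 ± 0.13 SE, were higher too, and so was SPY, a repressor of gibberellin signalling, with 0.47. SPY was not called with median centring. The F-box genes SLY1 and SLY2, which act after the receptors, had differences of -0.13 and -0.24 and were not called; with median centring 2 of the list were called lower.

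Auxin genes went both ways within a family. WES1, also called GH3.5, which joins auxin to amino acids, read 674, 801 and 800 against 173, 138 and 166 (2.26 ± 0.12 SE, adjusted p = 4.6e-10). GH3.17, of the same family, was higher with 1.62 ± 0.18 SE, at 103, 95.1 and 114 against 36.8, 29 and 35.7. GH3.3 was lower, at 44.6, 66.7 and 41.6 against 133, 174 and 153 (-1.61 ± 0.18 SE, adjusted p = 1.2e-06). ARL, an ARGOS-like protein that promotes cell expansion, read 214, 216 and 250 against 46.3, 56.1 and 47.6 (2.18 ± 0.15 SE, adjusted p = 7.5e-09). IAA18, an auxin signalling repressor, was higher with 0.53, and IAA30 had a difference of 0.32 ± 0.22 SE and was not called. EIN3, the main transcription factor of ethylene signalling, was higher with 0.63 ± 0.09 SE (385, 372 and 375 against 254, 226 and 252). For cytokinin, 1 of 4 tested genes was called higher and 2 lower. With each array left out in turn 0 or 1 was higher and 0 to 2 were lower, with 0 lower when low R:FR replicate 2 or 3 of bud n was the one left out. ARR15 was dim in bud n-2 with no bound.

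Genes of light response and of the clock were few. GI, a clock protein that promotes flowering, read 213, 213 and 236 against 110, 120 and 130 (0.88 ± 0.12 SE, adjusted p = 1.3e-05). Of 4 tested shade avoidance genes 3 were higher and 1 lower (median 0.64), against 28.4% higher and 23.3% lower on the whole array. HAT2, a homeodomain gene induced by shade and auxin, read 197, 176 and 215 against 117, 96.8 and 113 (0.85 ± 0.11 SE). FHL was at least 1.56-fold higher, but passed the filter through bud n-2 only and had to differ. YUC2 was higher with 0.43 ± 0.17 SE and lost its call with both other scalings. The lower one was HYH, a bZIP factor that acts beside HY5 in light responses. It read 23.5, 20.8 and 17.7 against 38.6, 37.5 and 44.9 (-0.97 ± 0.18 SE, adjusted p = 2.7e-04).

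Flavonoid genes were lower in the lower bud or not called. Of 11 genes on the list 9 were tested. Among these 6 were lower and none higher (median -1.48), against 23.3% lower and 28.4% higher on the whole array. The count and the median rest partly on 4 genes that passed the filter only through 1 bud, and with a filter at the 60th percentile 3 of 6 were lower. UGT78D1, which adds rhamnose to flavonols, was bright in both buds, at 173, 172 and 190 against 447, 589 and 465 (-1.48 ± 0.11 SE, adjusted p = 9.6e-09). DFR and UF3GT, which act on the way to anthocyanins, were dim in bud n-2 and at least 1.95-fold and 2.44-fold lower. AT5MAT, an anthocyanin malonyltransferase, was also dim there, at 9.9, 8.73 and 4.49 against 32.4, 38.5 and 27.4 (at least 1.44-fold). The 3 genes not called were CHIL, UGT80B1 and UGT78D2, with -0.16, -0.13 and -0.04, named after their values were seen. In glucosinolate synthesis UGT74B1, which glucosylates the thiohydroximate, read 110, 120 and 93 against 316, 357 and 284 (-1.57 ± 0.12 SE, adjusted p = 2.7e-08). AOP1 was not called, and BCAT4 was dim in bud n-2 with no bound.

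Genes linked to jasmonate and defence split, with 6 of 10 lower and 3 higher (median -0.53). The higher share was near the whole array's 28.4% and the lower share above its 23.3%. THI2.1, a jasmonate-inducible antimicrobial thionin, read 54.5, 50.8 and 61.8 against 494, 641 and 570, and JAL23, a jacalin-related lectin, 55.5, 65.3 and 33.5 against 631, 1099 and 654. Both were picked among the lowest genes, a choice that required arrays without overlap. LCR66, annotated as plant defensin PDF2.4, went the other way, at 692, 795 and 498 against 168, 172 and 96.2 (2.21 ± 0.20 SE, adjusted p = 1.4e-07), while LCR68, annotated as PDF2.3, was lower with -0.75 ± 0.12 SE. The list had 1 higher gene with both other scalings and without replicate 1 of bud n-2. Of 20 redox genes 4 were higher, 4 lower and 12 not called, below the whole array's 28.4% and 23.3%. With median centring 3 were higher and 11 lower. GSTU20, a glutathione transferase, read 256, 324 and 273 against 1159, 1318 and 1157 (-2.10 ± 0.13 SE, adjusted p = 1.9e-09), and the methionine sulfoxide reductases MSRB9 and MSRB5, which repair oxidised proteins, were at least 3.3-fold and 3.74-fold lower. MSRB9 passed the filter through bud n only and had to differ. GSTU16, from the same family as GSTU20, was higher with 1.15 ± 0.14 SE.

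Cell wall genes were called in both directions. Of 10 tested genes of wall loosening 5 were lower and 2 higher, and without replicate 1 of bud n 3 were lower. XTH16, which cuts and rejoins xyloglucan, read 185, 241 and 141 against 546, 432 and 524 (-1.43 ± 0.15 SE, adjusted p = 4.8e-07), and XTH32 was lower with -0.89 ± 0.14 SE. The expansin genes EXPA8 and EXLA1 were higher with 0.87 and 1.31, although 1 array of bud n read 21.3 for EXLA1, near the 28.7 of the lowest array of bud n-2. Of 31 genes of wall synthesis and pectin 8 were lower, 3 higher and 20 not called, near the whole array's 23.3% and below its 28.4%. CSLA01, a mannan synthase of the cellulose synthase-like family, read 72, 76.8 and 48.4 against 277, 252 and 199 (-1.90 ± 0.18 SE, adjusted p = 2.7e-07). PME61, a pectin methylesterase, was lower with -1.39 ± 0.16 SE, and PMEPCRF, also of that family, was higher with 1.33 ± 0.16 SE. Of 7 tested RALF-like peptides, signals that act on growth through the wall, 4 were lower, 1 higher and 2 not called. The whole array had 23.3% lower and 28.4% higher. Over the alternatives 3 to 5 were lower and 0 or 1 higher. The higher one, RALFL18, passed the filter through bud n-2 only, with a bound of 1.14-fold. It lost its call once dim values were raised. RALFL34 was the brightest of the named ones, at 996, 1157 and 1026 against 1810, 1720 and 1625 (-0.70 ± 0.09 SE, adjusted p = 8.3e-06). TUB7, a beta-tubulin, was lower with -0.69 ± 0.09 SE, while TUB5 was higher with 0.34 ± 0.08 SE and lost that call with median centring.

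Genes of flowering, of anthers and of other organs were tested in small numbers. FD, the partner of florigen in the meristem, was lower by a bound of 1.08-fold that is narrower than the gap between the percentiles, and it was no longer called once dim values were raised. Of 8 anther genes 5 were tested and 4 called higher, against 28.4% on the whole array. Of the 5, ATA27 passed the filter through bud n-2 only and had to differ. Under high R:FR 2 of the 5 were higher and 1 lower. AMS, a bHLH factor of the tapetum, read 124, 153 and 97.8 against 69.4, 53.4 and 46.2 (1.14 ± 0.19 SE, adjusted p = 7.3e-05). ATA27, a tapetum beta-glucosidase, was at least 1.47-fold higher, with 17.4, 50.1 and 22.2 in bud n-2 and 0.424, 0.59 and 4.43 in bud n. The other called genes were smaller, SWEET8 with 0.55 ± 0.15 SE and sks18 with 0.57 ± 0.18 SE, and sks18 overlapped between the buds. The call of sks18 was lost with quantile normalization (0.39), with median centring (0.38), without replicate 2 of bud n-2 (0.50) and without replicate 3 of bud n (0.35). EMS1, a receptor kinase that sets tapetum fate, had a difference of -0.02 ± 0.10 SE. The pollen list had no tested gene. YAB3, which marks the lower leaf side, and TCP15, a growth-regulating factor, were lower with -0.45 ± 0.12 SE and -0.46 ± 0.11 SE. None of 4 tested trichome and stomatal genes was called, though 1 was higher without replicate 1 of bud n, nor were OLEO3 on the seed list, GUT2 on the vascular list and JKD on the root list.

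Several strongly lower genes belong to none of these processes. Cpn60beta2, a chaperonin subunit of plastids, read 320, 423 and 325 in bud n-2 and 1079, 1028 and 1058 in bud n (-1.58 ± 0.12 SE, adjusted p = 1.1e-08). ATLP-1, a thaumatin-like protein, read 391, 503 and 440 against 1364, 1426 and 1421 (-1.67 ± 0.13 SE, adjusted p = 2.4e-08). ATMPK13, a MAP kinase, was at least 1.86-fold lower. It passed the filter through bud n only and had to differ. Among the higher ones, SDT, a spermidine acyltransferase, was at least 1.43-fold higher, but it passed the filter through bud n-2 only and had to differ.

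The difference between the buds was then set beside the same difference under high R:FR, which rests on other arrays but shares the variance estimate of each probe set. Under high R:FR 2890 probe sets were higher in bud n-2 (20.2%) and 2044 lower (14.3%). Of the 4058 higher under low R:FR, 3922 had the same sign under high R:FR (96.6%) and 2462 were also called higher (60.7%). Of the 3330 lower ones, 3122 had the same sign (93.8%) and 1752 were also called (52.6%). Calls in opposite directions were rare, with 5 and 9 probe sets. A call under 1 light alone does not show a difference between lights: 3160 probe sets were called under low R:FR and not under high R:FR, and 59 of these passed the test of the difference itself.

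That test, the interaction of position and light, called 49 probe sets with a more positive position difference under low R:FR (0.343%) and 98 with a more negative one (0.686%). In the low R:FR comparison 47 of the 49 were higher in bud n-2 and 91 of the 98 were lower. These counts depend heavily on which arrays and which variance model enter the fit. Among the high R:FR arrays of bud n, leaving out replicate 1, 2 or 3 turned the total of 147 into 264, 19 or 2. It was 0 without the variance trend, where 2038 probe sets had an unadjusted p under 0.05. Among the low R:FR arrays of bud n it was 18, 16 and 4 without replicates 1, 2 and 3. For bud n-2 it was 8 without low R:FR replicate 1, also 8 without low R:FR replicate 3, and 82 without high R:FR replicate 2. The genes below are therefore given as values with a fragile call.

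Of the genes with a symbol selected for description, 6 had a more positive position difference under low R:FR. That selection took at most 6 each way. Under low R:FR LCR66 read 692, 795 and 498 in bud n-2 and 168, 172 and 96.2 in bud n, and it read 488, 386 and 546 against 242, 262 and 315 under high R:FR. Its position difference was 2.21 under low and 0.79 under high R:FR, and these differed by 1.42 (adjusted p = 0.0283). The defensin was higher in the lower bud under both lights. AMS read 103, 66.3 and 98.8 in bud n-2 and 84.3, 83.6 and 101 in bud n under high R:FR, an overlap that low R:FR does not show (difference of differences 1.17, adjusted p = 0.0426). GH3.17 had position differences of 1.62 and 0.47 (adjusted p = 0.0379), ARL of 2.18 and 1.24 (0.0458) and bHLH121, a factor of iron homeostasis, of 1.04 and 0.36 (0.0379). For sks18, a multicopper oxidase-like protein, the sign turned, from -0.61 under high to 0.57 under low R:FR (adjusted p = 0.0394). With 1 array of the 12 left out in turn, each of these 6 genes was called in 1 to 5 of the 12 fits, and each kept its sign.

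A more negative position difference under low R:FR was found for 4 genes with a symbol. PPR336, a pentatricopeptide repeat protein, read 207, 199 and 190 against 317, 323 and 292 under low R:FR and 258, 308 and 274 against 279, 284 and 302 under high R:FR. Its position difference was -0.64, called lower, under low R:FR and -0.04 under high R:FR (adjusted p of the difference 0.0342). Hsp70-2 was lower in bud n-2 under both lights, with -1.38 and -0.72 (adjusted p = 0.0379). Under low R:FR MSRB5 and ARR15 were dim in the lower bud, and with dim values raised neither passed (adjusted p = 0.0895 and 0.0694). Each of the 4 was called in 2 to 4 of the 12 fits with an array left out.

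**Figure D4:**
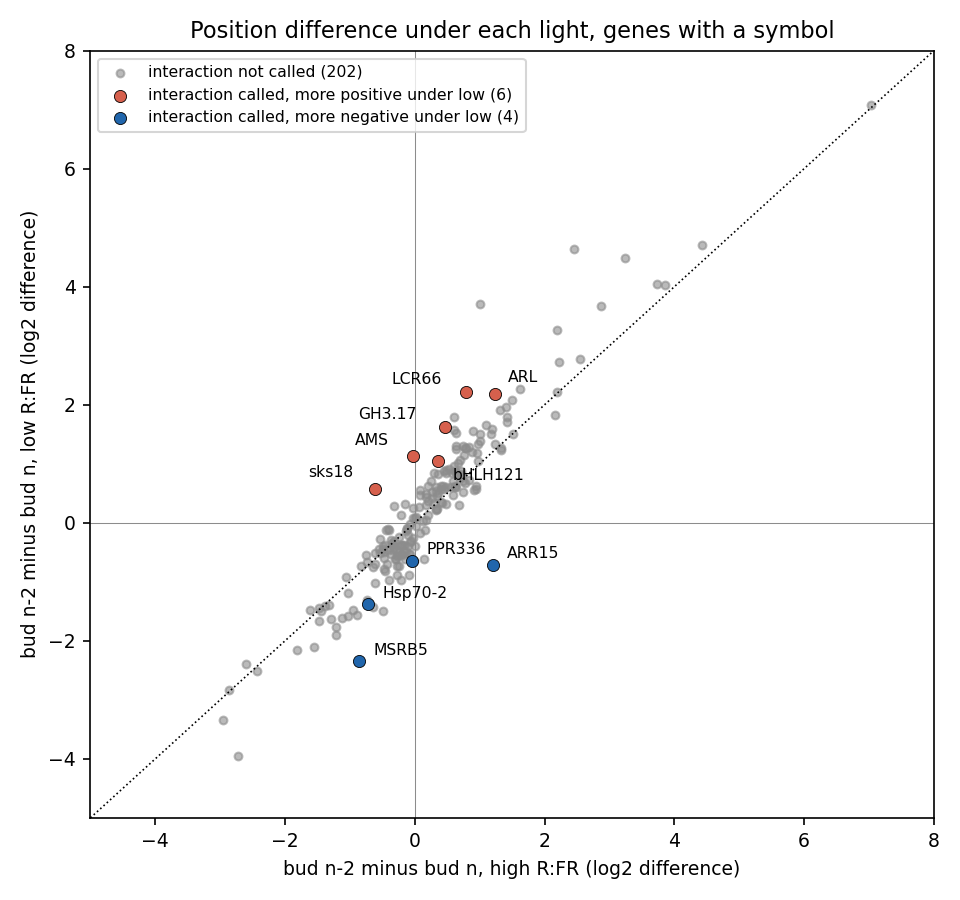
Position difference (log2, bud n-2 minus bud n) under low R:FR against that under high R:FR for the 212 named genes that have a symbol. The dotted line marks equal differences. Coloured points are the 10 genes whose interaction of position and light was called, 6 above and 4 below the line.

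List medians under the other light are given side by side, with no test of their difference. Mitosis had medians of -0.68 under low and -0.53 under high R:FR, autophagy 0.64 and 0.55, desiccation and cold proteins 1.73 and 1.72, and flavonoids -1.48 and -0.95. The plastid-encoded genes had 0.49 and 0.35, with 25 higher and 1 lower of 66 under high R:FR. Wall loosening had -0.25 and 0.11, and anther genes 0.57 and -0.03. No member of the mitosis, autophagy or plastid lists was called in the interaction.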

How the data were processed

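Transcripts of axillary buds were measured on 12 ATH1 arrays, 3 in each of 4 groups, and each array's group was taken from its title. The deposited values are linear intensities with 1 value per probe set; the submitters' processing notes name MAS5 and GCOS, versions not given in the sources used here. Array trimmed means were 99.1 to 99.2, so the deposited intensities were already scaled to a common mean. RNA was labelled with a 3-prime IVT Express kit, per the labels' protocols.

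Of 22810 probe sets 64 controls were left out. Of all probe sets 13513 have 1 gene in the platform annotation, 503 several and 8794 are unlisted and stay unnamed; 13436 matched the RefSeq gene table, used for names only. Deposited intensities were put on the log2 scale with no offset. The filter kept probe sets whose value exceeded the 40th percentile of the same array in 3 or more of the 12. limma 3.58.1 in R 4.3.3 was fitted to all 12 arrays (lmFit, eBayes with a variance trend), with Benjamini-Hochberg adjustment across the 14295 probe sets kept. A dim group was raised to the 40th percentile for a bound ("at least"). Control ratios were compared with exact permutation tests. The number of arrays limits the precision.

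The genes described are the 5 highest and 5 lowest of any name, the 15 highest and 15 lowest with a symbol, the members of each list with the smallest p (4 at most), all tested members of lists with 6 or fewer, and called interaction genes with a symbol, up to 6 each way; the main ones are printed. The 5 and 15 at each end were taken only from called genes whose arrays did not overlap between the buds. Genes dim on every array of the brighter bud were also left out there. Exceptions are marked as named after their values were seen. The comparison, its members and the gene lists were chosen with earlier results of these data known, and 16 of 73 lists were written after the annotation was read. On simulated data with 200 changed probe sets, the low R:FR comparison recovered 47.9% of those with a log2 difference of 0.5. It recovered 84.5% at 1 and 98.3% at 2, with 6 false calls. Far more were called in the data (51.7%), and the adjustment depends on that share, so these rates need not hold there. Alternatives changed scaling, filter, offset, dim values, variance model, array weights, replicate block, fold threshold and single arrays. A planned search of promoters was not run, since no promoter sequence was used here. Some genes of the flowering list are not reported here.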

Additional observations from a re-analysis of the deposited data

Results flagged for a closer look

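For 10 of the genes selected for description the position difference (log2, bud n-2 minus bud n) was not the same under low and high R:FR by the interaction test in limma. The low minus high difference was 1.42 for LCR66, 0.94 for ARL, 1.16 for GH3.17, 1.17 for AMS, 0.68 for bHLH121 and 1.18 for sks18. It was -0.60 for PPR336 and -0.65 for Hsp70-2. The fitted values of -1.91 for ARR15 and -1.50 for MSRB5 are not measured differences, since both genes were dim on all 3 low R:FR arrays of bud n-2. With dim values raised they were -0.99 (adjusted p = 0.0694 in limma) and -1.05 (adjusted p = 0.0895 in limma), and neither was called. For ARR15 the arrays of bud n-2 read 48.8, 77.9 and 97.7 under high R:FR, above the 32.6, 31 and 30.6 of bud n, while under low R:FR they read 7.01, 15.3 and 15.8 against 18.9, 21.5 and 18.4. With 1 of 12 arrays left out, LCR66 was called in 5 of the 12 fits, GH3.17 and PPR336 in 4, AMS, ARR15 and MSRB5 in 3, bHLH121, sks18 and Hsp70-2 in 2 and ARL in 1.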

How the results depend on the processing

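The counts of 4058 higher and 3330 lower probe sets under low R:FR moved with the scaling. Median centring gave 2599 and 5202, by moving the median of all tested probe sets by -0.19. At 2-fold or more they were 1006 and 427, a stricter rule by construction. Leaving out 1 array gave 3482 to 4239 higher and 2864 to 3516 lower; leaving out high R:FR arrays was added after the data were seen. The 147 interaction calls became 231 with quantile normalization, 230 with 32 added before log2, 444 with array weights, 90 with no filter, 35 at 2-fold and 0 without the variance trend, where 2038 had an unadjusted p under 0.05 in limma; the cause was not tested. Leaving out 1 array gave 2 to 264. With the replicate number as a block the counts were 3961, 3251 and 105. Same-numbered arrays correlated by -0.002 to 0.043 in their deviations from group means, so no shared deviation by replicate number was seen. Whether the numbers pair samples of the same plants or harvest is not known. Of 183 called genes among the 223 selected for description, 148 never lost their call in an alternative that tested them. That count includes BCAT4, although its sign reversed with dim values raised. The filter at the 60th percentile tested 137 of the 183. With dim values raised ARR15 and BCAT4 reversed, to 0.21 and 0.14. The promoter search was not run. Signal near the background limits all genes given as bounds, and those dim on 1 or 2 arrays of a bud.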
